A study of Homo sapiens with 2 samples.

Results

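The genes of the translation initiation factors (symbols starting EIF and a digit) and translation elongation factors (EEF and a digit) were described in TCam-2 cells that carried a DDX53 construct. Members were the protein-coding genes on autosomes or chromosome X whose symbol matches that pattern, without the EIF2AK kinases, which phosphorylate eIF2 and are not factors themselves. The rule uses no measured value. It gave 66 members among the 62700 genes of the gene table, of which 2 are read-through genes that join a factor gene to its neighbour (EEF1AKMT4-ECE2 and EEF1E1-BLOC1S5). All 66 also had a transcript in the transcript table.

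TCam-2 cells are a line established from a human seminoma, a germ cell tumour of the testis. Both libraries came from cells that overexpress DDX53 after transduction (DDX53-FLAG in the design); DDX53 is X-linked and encodes an RNA helicase of the DEAD-box family. The series holds 1 group of 2 replicates, and the labels do not say whether they were separate cultures, transductions or clones. Any p-value below sets 1 library against the other relative to counting noise, and does not measure spread among replicates. The control cells that the design names (GFP-FLAG and untransduced) were not analysed here, and no difference made by DDX53 can be read from these values. DDX53 itself had 146 reads in replicate 1 and 147 in replicate 2 (6.05 and 6.62 CPM, a read count relative to all reads in genes), which without a control library does not test the label.

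Translation initiation starts when eIF2 brings the initiator tRNA to the small ribosomal subunit, with eIF1, eIF1A, eIF3 and eIF5 bound beside it. The eIF4 factors hold the capped end of the mRNA and unwind it, and eIF5B joins the large subunit at the start codon. In elongation eEF1A carries aminoacyl-tRNA to the ribosome, the eEF1B subunits reload it with GTP, eEF2 moves the ribosome on, and eIF5A, which carries the modified lysine hypusine, helps it past difficult peptide bonds. Many mRNAs of this machinery are known to begin with a C and a run of pyrimidines, the terminal oligopyrimidine tract through which mTOR controls their translation.

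Gene starts were read from RefSeq (GRCh38.p14), because such a tract sits exactly at the first base of the mRNA. The motif was a C at the annotated start followed by at least 4 bases that are each C or T, on the strand of the gene. Of the 53 members with an entry, 13 carried it (24.5%), beside 5.14% of the 27305 genes in the promoter table. The lines show 30 bases for 6 of them, 10 before the start and 20 from it, with the tract in capitals; they were chosen as the highest elongation factor genes with the tract, a subunit of eIF3 with a long tract, and a near-identical pair.
EEF1A1 (chr6:73521013-73521042, minus strand): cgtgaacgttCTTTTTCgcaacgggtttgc
EEF2 (chr19:3985444-3985473, minus strand): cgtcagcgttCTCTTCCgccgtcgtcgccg
EEF1B2 (chr2:206159885-206159914, plus strand): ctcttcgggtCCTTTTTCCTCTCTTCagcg
EIF3F (chr11:7987327-7987356, plus strand): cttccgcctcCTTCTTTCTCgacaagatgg
EIF2S3 (chrX:24054946-24054975, plus strand): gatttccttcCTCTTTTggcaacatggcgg
EIF2S3B (chr12:10505880-10505909, plus strand): gactttcttcCTCTTTTggcaacatggcgg
The tract ran for 16 bases in EEF1B2, 10 in EIF3F and 7 in the other 4. The others with a tract were EIF2A, EIF2D, EIF3D, EIF3K, EIF3M, EIF4A2 and EIF4B. The 13 genes with the tract had a median of 409 TPM (a transcript level per length) and the 40 without it a median of 47.9 TPM. A match is only a description of these letters, and moving it within 5 bases of the start raised both counts, to 24 members and 25.2% of genes.

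Nearly all of the machinery was detected. At least 1 CPM in both libraries was reached by 58 of the 66 members, beside 61.8% of the protein-coding genes on autosomes or X. Together the members took 3.47% ± 0.0499 (SD, n = 2) of all reads, 3.44% in replicate 1 and 3.51% in replicate 2. EEF1A1 alone gave 47.1% and 48.9% of the member reads, and EEF2 10.8% and 9.98%. Of the 8 members under 1 CPM, EEF1G and both read-through genes had no assigned read. A count of 0 allows up to 3 assigned reads, or 0.124 CPM in the first library and 0.135 CPM in the other. It does not cap the RNA level of these genes, whose exonic bases are 99.9% to 100% shared with overlapping genes, and EEF1G was high by TPM. EIF2S3B, EIF3CL, EIF4E1B, EIF4EBP3 and EIF5AL1 had between 1 and 16 reads a library. In bulk RNA, fewer expressing cells and less RNA per cell cannot be told apart.

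**Figure D1:**
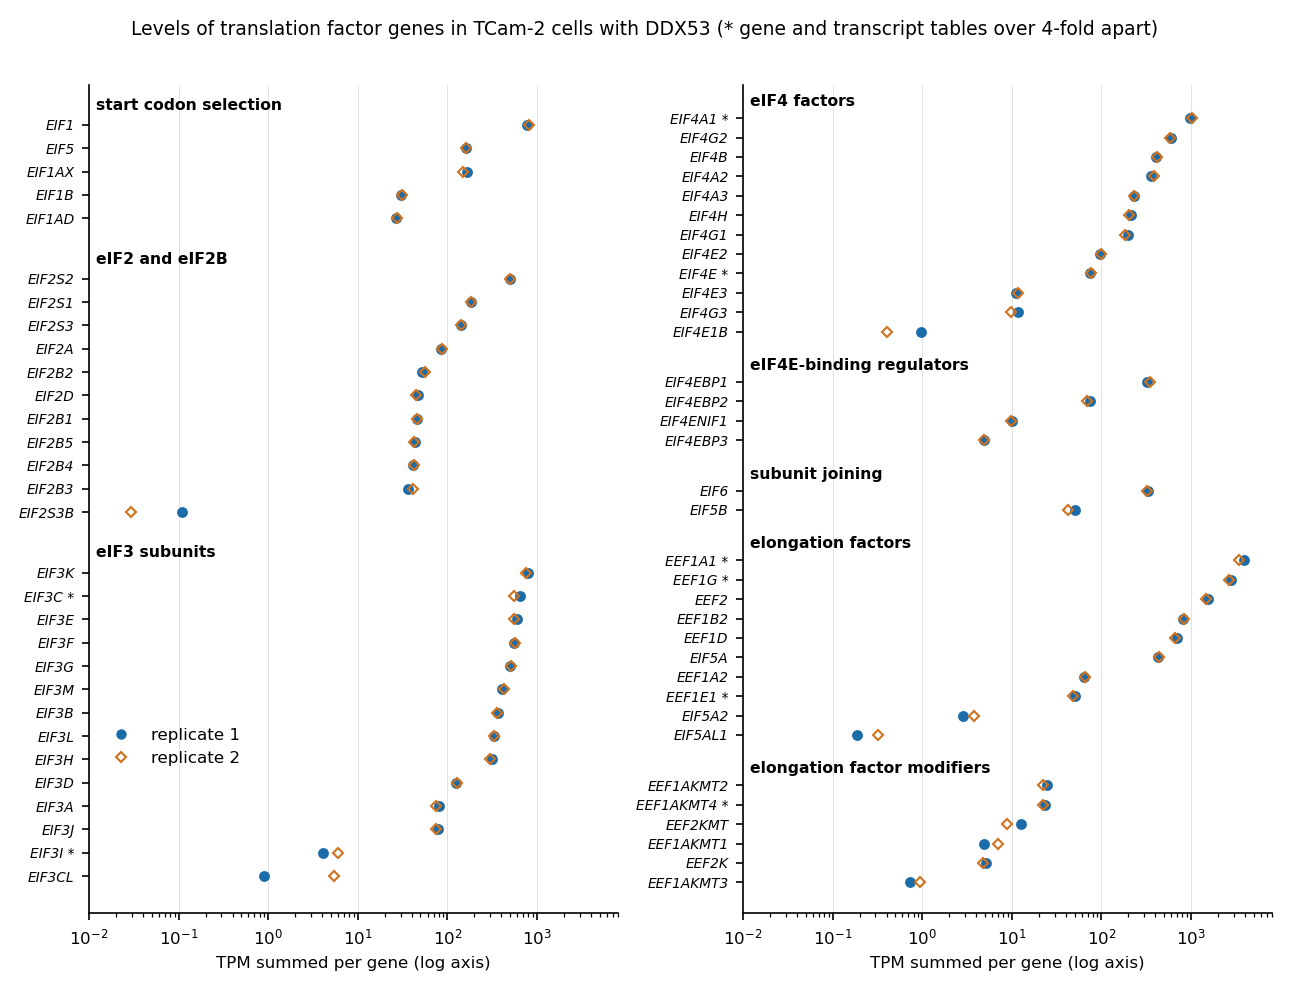
TPM summed per gene in each library for 64 members grouped by role (log axis; circles replicate 1, diamonds replicate 2). The 2 libraries overlie each other for most genes, and EEF1A1, EEF1G and EEF2 stand at the top; a star marks the 8 genes whose gene and transcript tables were over 4-fold apart.

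Levels below are TPM per gene, summed over the transcripts that GENCODE 29 assigns to it, as replicate 1 and replicate 2. The gene table counts reads and the transcript table estimates TPM, so each gene's reads were also predicted from its TPM and transcript length. Over 4-fold apart in both libraries was called a disagreement. Of 61 members tested, 8 disagreed, beside 5.89% of all genes tested and 4.86% of the protein-coding ones (1.96% of all genes had reads over the prediction and 3.93% under it). Reads exceeded the prediction in EEF1A1 and EIF3I and fell short in EEF1G, EIF4A1, EIF3C, EIF4E, EEF1E1 and EEF1AKMT4. Over all 66 members, the Spearman correlation of TPM with CPM per kilobase was 0.76, a description over genes that share the same 2 libraries and, in part, the same transcript lengths.

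**Figure D2:**
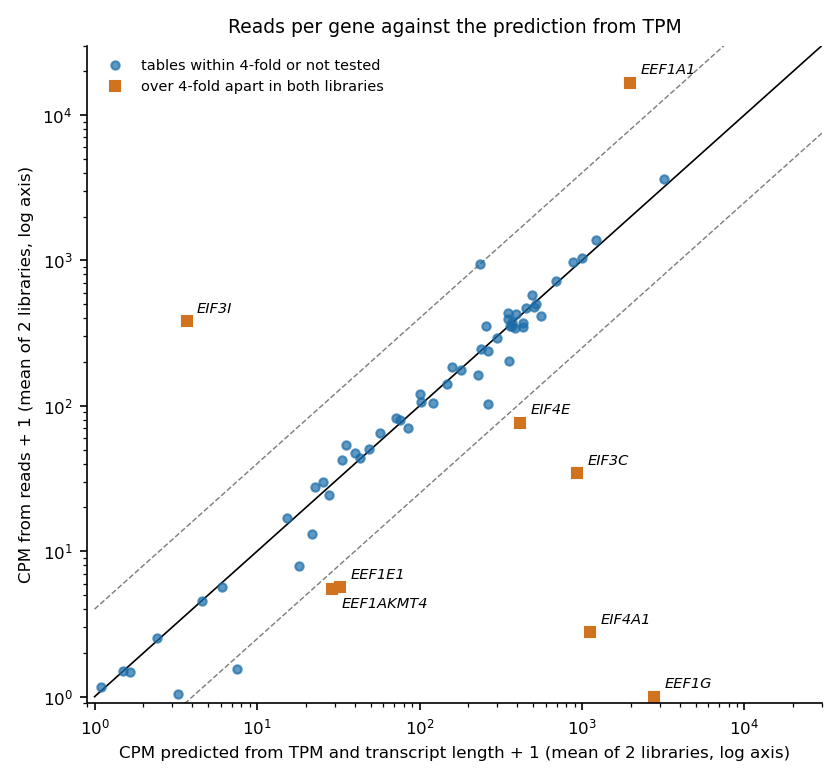
Mean CPM from reads against mean CPM predicted from TPM and transcript length, both plus 1 and on log axes, over 64 members; the solid line marks equal values and the dashed lines 4-fold. Squares are the 8 members over 4-fold apart in both libraries, with EEF1A1 and EIF3I above the line and the other 6 below it.

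EEF1A1 (ENSG00000156508), whose protein delivers aminoacyl-tRNA, lies at chr6:73515750-73523797 on the minus strand (GRCh38, GENCODE 29). It had 391047 and 380682 reads, 16201 and 17149 CPM, against 2118 and 1854 CPM predicted from 3912 and 3396 TPM. Reads were thus above the prediction by 2.93 and 3.21 on the log2 scale. Its TPM sat almost entirely (98.1% and 97.4%) in EEF1A1-206, a retained-intron transcript of 792 bases, while the coding transcript EEF1A1-201 had 19.2 and 22.8 TPM. Of the 251955 transcripts in the table, 50288 are not in GENCODE 29 and were given no gene, and 53 of those had at least 100 TPM. Their part in this gap was not tested. Of 50-base windows of EEF1A1-201, 57.2% also lay in another gene, most often the pseudogene EEF1A1P5.

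EEF1G (ENSG00000254772, chr11:62559601-62574086, minus strand), the gamma subunit of the eEF1B complex that reloads eEF1A, showed the opposite. No read was assigned to it in either library, yet it was listed at 2763 and 2676 TPM, of which EEF1G-201 held 99.8% and 99.9%. Of its exonic bases, 99.9% overlapped a protein-coding gene named AP002990.1 in GENCODE 29, which itself had only 4 and 3 reads. EIF4A1 (chr17:7572706-7579005, plus strand), the main eIF4A helicase, had 38 and 44 reads and 978 and 1013 TPM, or 1114 and 1132 CPM predicted. All 50-base windows of EIF4A1-201 (100%) also lay in other genes, 91.7% of them in AC016876.2, a gene without a read. EIF3C (chr16:28688558-28735730, plus strand; 899 and 658 reads, 640 and 554 TPM) shared 96.8% of its windows with its copy EIF3CL, and their coding sequences were 100% identical over the 2739 aligned bases. EIF4E, EEF1E1 and EEF1AKMT4 shared 5.3%, 33.9% and 24.5% of their windows with other genes. In 3 of the 6 genes with reads under the prediction the shared windows were 50% or more, as in 1 of the 2 with reads over it (EEF1A1). Among the 53 tested genes not called, 2 reached 50% (EIF3CL and EIF4EBP3). Whether reads in shared sequence were left out of the counts was not tested.

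EIF3I (chr1:32221928-32231604, plus strand), a propeller-shaped subunit of eIF3, had 9184 and 8509 reads (380 and 383 CPM) but only 4.14 and 6.01 TPM. Per kilobase this was 390 and 582 CPM, a value that moves with the TPM used to weight its transcript length, so its level per length is uncertain on both scales. EIF3E lay just inside the 4-fold limit in replicate 1 and outside it in replicate 2 (1.86 and 2.13 above the prediction on the log2 scale). EIF3CL, also not called, stood at -0.76 and -3.09.

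Among the elongation factors, EEF1A1, EEF1G and EEF2 had the highest TPM of all members. EEF2, the translocase, had 1539 and 1471 TPM from 89478 and 77780 reads. Of the eEF1B subunits other than EEF1G, the nucleotide-exchange subunit EEF1B2 had 802 and 824 TPM and EEF1D, another exchange subunit, 693 and 669 TPM. EIF5A had 424 and 440 TPM. The lowest were EEF1E1 (50.6 and 48.0 TPM), which sits in the multi-tRNA synthetase complex, EIF5A2 (2.85 and 3.74 TPM) and EIF5AL1 (0.189 and 0.318 TPM).

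The tissue-restricted paralog EEF1A2, known from neurons and muscle, had 64.3 and 66.1 TPM. EEF1A1 held 98.2% ± 0.208 (SD, n = 2) of the family by TPM and 99.8% by CPM per kilobase. The TPM of EEF1A1 lay almost entirely in a retained-intron transcript of 792 bases. The highest coding transcript of EEF1A1 had 19.2 and 22.8 TPM, below that of EEF1A2 (58.8 and 60.9 TPM). CPM per kilobase weights length by the same TPM, so it is no independent check of the share. EEF1A1 also led in reads (391047 and 380682 against 1641 and 1556). The coding sequences of the pair were 78.1% identical and shared no 50-base window. EIF5A held 99.2% ± 0.145 of its family. The 39 coding bases around the codon of the lysine that becomes hypusine, in capitals, were read from GENCODE 29 transcripts because 30.1% of the 50-base windows of EIF5A also lie in EIF5AL1.
EIF5A: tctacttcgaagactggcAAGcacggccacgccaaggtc
EIF5A2: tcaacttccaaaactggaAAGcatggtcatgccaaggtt
EIF5AL1: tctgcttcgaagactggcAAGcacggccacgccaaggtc
They cover positions 130 to 168 of each coding sequence and the lysine at residue 50. Counted from 1 at the 5′ end of the stretch, EIF5AL1 differed from EIF5A only by A4G, and EIF5A2 at 8 bases. An intron interrupts the stretch in EIF5A (chr17:7306999-7312463, plus strand) and EIF5A2, whereas EIF5AL1 has it unbroken at chr10:79512779-79512817. Over the whole coding sequence EIF5AL1 was 98.9% identical to EIF5A, and it had 13 and 9 reads against 8785 and 8363.

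The modifiers of the elongation factors were low and all 6 were detected. The methyltransferase genes EEF1AKMT2 (24.7 and 22.1 TPM), EEF1AKMT4 (23.2 and 22.2 TPM) and EEF2KMT (12.7 and 8.93 TPM) were the highest by TPM. By CPM per kilobase EEF2KMT (9.31 and 6.70) was highest, and EEF1AKMT4 (2.59 and 2.32) lay below EEF2K (4.14 and 3.79). The order thus depends on the table. EEF1AKMT1 had 4.90 and 6.95 TPM and EEF2K, the kinase that inactivates eEF2, 5.13 and 4.81 TPM. EEF1AKMT3 was lowest, at 0.726 and 0.950 TPM.

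Of the 5 genes listed here under start codon selection, EIF1, which guards against wrong start codons, led with 774 and 808 TPM. EIF5, the GTPase activator of eIF2, had 160 and 163 TPM, and EIF1AX, which encodes eIF1A, had 167 and 151 TPM; these neighbours did not differ beyond their spread in TPM. EIF1B (30.4 and 31.5 TPM) and EIF1AD (26.9 and 27.2 TPM) were lower. Whether EIF1AD acts in this step was not examined. EIF1 made 96.2% ± 0.0267 (SD, n = 2) of the EIF1 and EIF1B level.

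Among the subunits of eIF2, EIF2S2, the beta subunit, was highest with 494 and 497 TPM, EIF2S1, the alpha subunit whose phosphorylation lowers initiation, had 185 and 183 TPM, and EIF2S3, the X-linked gamma subunit, had 142 and 141 TPM. The replicate ranges of the 3 did not overlap by TPM, but the order of the last pair depends on the table: by CPM per kilobase EIF2S3 (129 and 131) lay above EIF2S1 (117 and 118), with EIF2S2 still highest (366 and 371). The 5 subunits of eIF2B, which reloads eIF2 with GTP, sat close together between 36.3 TPM (EIF2B3, replicate 1) and 56.9 TPM (EIF2B2, replicate 2). EIF2A (84.7 and 86.0 TPM) and EIF2D (46.7 and 45.2 TPM), which are known for initiator tRNA delivery apart from eIF2, lay above or among them. The lowest 3 of the role were EIF2B4 (40.8 and 42.3 TPM), EIF2B3 (36.3 and 41.2 TPM) and EIF2S3B. EIF2S3B, a copy of EIF2S3 on chromosome 12, had 7 reads in replicate 1 and 1 read in replicate 2. In the RefSeq windows, 48 of 50 bases from the start and 234 of 250 before it were the same as in EIF2S3.

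In eIF3, the scaffold that holds the small subunit, EIF3K had the highest TPM (798 and 751), followed by EIF3C (640 and 554) and EIF3E (596 and 549). By CPM per kilobase EIF3E (1450 and 1620) was above EIF3K (431 and 401), so the top of this order depends on the table. The EIF3E value also moves with the TPM used to weight its transcript length. EIF3C and EIF3E overlapped in their TPM, and the reads of EIF3C were far under its TPM. EIF3F (555 and 564 TPM), EIF3G (504 and 517 TPM) and EIF3M (408 and 423 TPM) followed. EIF3B, EIF3L, EIF3H and EIF3D came between, from 367 TPM (EIF3B, replicate 1) down to 126 TPM (EIF3D, replicate 1). The largest subunit, EIF3A, was low per length at 80.8 and 75.2 TPM although it had 404 and 383 CPM. The loosely attached EIF3J had 77.6 and 74.3 TPM. The lowest were EIF3J, EIF3I, whose TPM is in doubt, and EIF3CL with 0.889 and 5.47 TPM.

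Of the eIF4 factors, EIF4A1 (978 and 1013 TPM), EIF4G2 (602 and 576 TPM) and EIF4B (406 and 412 TPM) were highest by TPM. EIF4G2, known as DAP5, lacks the part of eIF4G that binds the cap-binding protein. It exceeded EIF4G1 (198 and 183 TPM), the scaffold of cap-dependent initiation, in both libraries, and EIF4G1 held 24.1% ± 0.386 (SD, n = 2) of the EIF4G level by TPM and 24.7% by CPM per kilobase. EIF4A3, the helicase of the exon junction complex (230 and 231 TPM), and EIF4H, a helper of eIF4A (216 and 205 TPM), were close to EIF4G1. EIF4G3 was among the lowest at 11.8 and 9.76 TPM. The cap-binding protein EIF4E had 73.8 and 75.9 TPM, below EIF4E2 (97.3 and 99.6 TPM), a weak cap binder known as a translational repressor, and above EIF4E3 (11.1 and 11.8 TPM) and EIF4E1B (0.966 and 0.409 TPM), which is known from oocytes. EIF4E was 40.4% of its family by TPM and 12.5% by CPM per kilobase, a scale whose transcript length is weighted by TPM. Of its TPM, 56.5 and 46.8 lay in EIF4E-203, a transcript of 11523 bases; the part of this transcript in the gap was not tested. EIF4A1 held 72.7% of the EIF4A1 and EIF4A2 level by TPM but 0.40% by CPM per kilobase, so the order of this pair depends on the table.

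**Figure D3:**
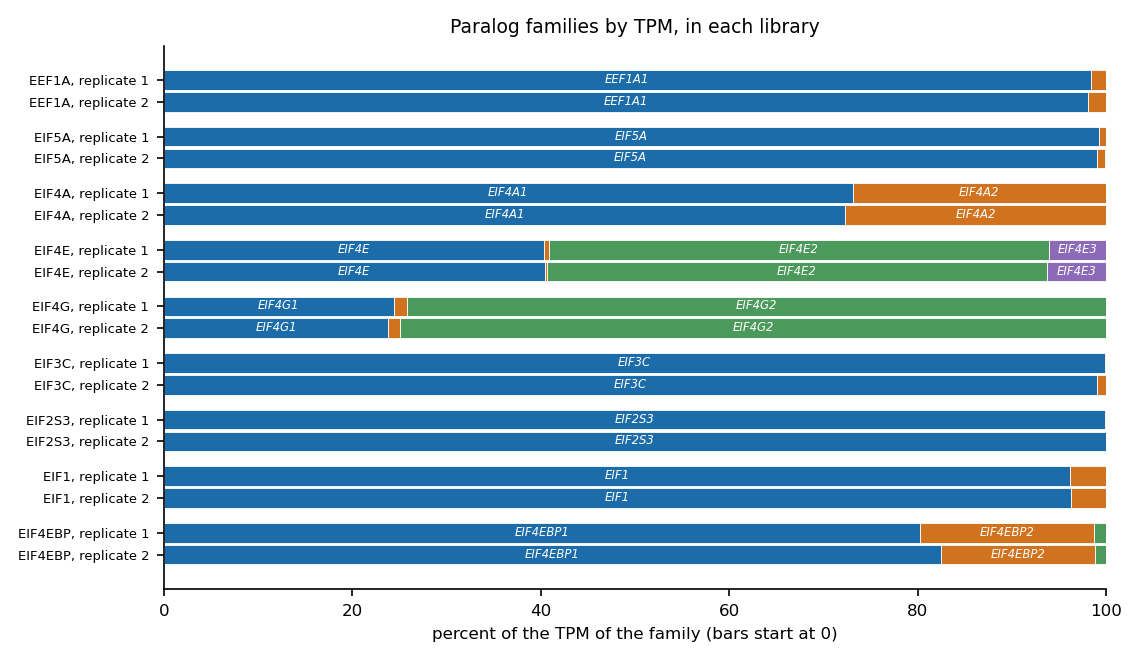
Share of each paralog in the TPM of its family, in percent, as stacked bars from 0 for each library. EEF1A1, EIF5A, EIF3C, EIF2S3 and EIF1 fill over 96% of their families in both libraries, while EIF4G2 and EIF4E2 hold the largest shares of theirs. The EIF3C share divides TPM between copies whose aligned coding bases are 100% identical, and 96.8% of EIF3C windows also lie in EIF3CL. Whether TPM separates these copies was not tested. The TPM of EEF1A1 lay almost entirely in a retained-intron transcript.

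Of the regulators that bind eIF4E, EIF4EBP1, which blocks eIF4E until mTOR phosphorylates it, had 322 and 346 TPM. EIF4EBP2 had 74.3 and 68.8 TPM, the transporter EIF4ENIF1 10.1 and 9.65 TPM, and EIF4EBP3 4.93 and 4.88 TPM. EIF4EBP3 had 1 read in each library, and 73.4% of its exonic bases overlap the read-through gene ANKHD1-EIF4EBP3. For joining of the subunits, EIF6, which keeps them apart until the large one is mature, had 331 and 325 TPM, and EIF5B had 50.7 and 42.2 TPM.

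The replicates were close. Over the 58 members with a mean of at least 1 CPM, the median log2 difference of CPM + 1 (replicate 2 minus replicate 1) was 0.0084. Single values ran from -0.32 to 0.34, beside a median of -0.0077 over 13898 genes. It was within 0.2 in 89.7% of the members and 79.4% of the genes. An exact two-sided binomial test in edgeR with Benjamini-Hochberg adjustment set the 2 libraries against counting noise. It called 14 of 60 tested members, beside 13.1% of 15299 genes. Of the 14, 5 were higher in replicate 2 (6.49% of genes) and 9 lower (6.65% of genes). This says that the libraries differ beyond counting, not that conditions do. The test calls smaller differences at higher read counts. Members and all genes were not matched for reads, so their called shares are not a like comparison.

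**Figure D4:**
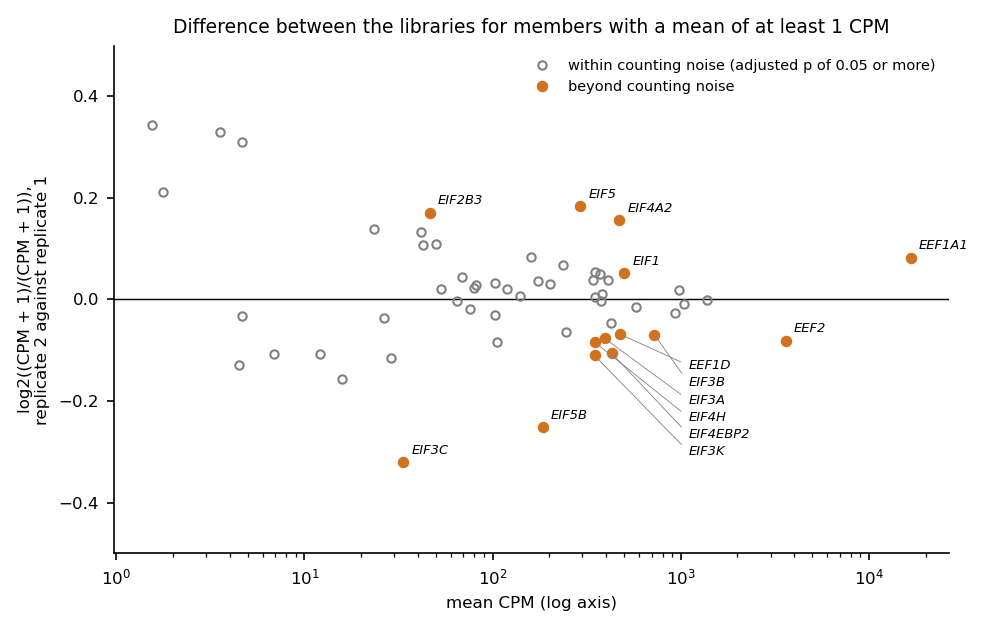
Log2 difference of CPM + 1 between replicate 2 and replicate 1 against mean CPM (log axis) for the 58 members with a mean of at least 1 CPM. Filled points are the called members, and all members lie between -0.32 and 0.34.

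The 5 members with a mean of at least 10 CPM that were most raised in replicate 2 were EIF5, EIF2B3, EIF4A2, EIF4E3 and EIF1AD. EIF5 had 274 CPM in replicate 1 and 311 in replicate 2, 0.18 higher on the log2 scale (edgeR adjusted p = 2.22e-12). EIF4A2, the second eIF4A helicase, had 445 and 496 CPM, 0.16 higher (edgeR adjusted p = 2.76e-14), and EIF2B3 had 43.5 and 49.1 CPM (edgeR adjusted p = 0.0348). EIF4E3 and EIF1AD did not pass (edgeR adjusted p = 0.294 and 0.157). At the other end stood EIF3C, EIF5B, EEF2KMT, EEF2K and EIF3K. EIF3C had 37.2 and 29.6 CPM, a difference of -0.32 (edgeR adjusted p = 0.000273), and EIF5B had 201 and 168 CPM, a difference of -0.25 (edgeR adjusted p = 3.19e-13). EIF3K had 361 and 335 CPM (edgeR adjusted p = 0.000101), while EEF2KMT and EEF2K did not pass (0.387 and 0.401). EEF1A1 was called at a difference of 0.082 and EEF2 at -0.081. By TPM EEF1A1 was instead lower in replicate 2 (3912 and 3396 TPM), so its direction depends on the table. Of the 14 eIF3 subunit genes, 4 were called lower (EIF3A, EIF3B, EIF3C and EIF3K) and 0 higher, beside 6.65% and 6.49% of all genes tested. It was the role with the most calls, followed by the elongation factors (1 higher and 2 lower), and no test by role was run. The EIF3C call rests on 899 and 658 reads, which lay far under its TPM.

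The highest transcript of each library was compared for members that reached 10 TPM in both. EIF2S2, EIF4EBP2 and EEF1AKMT4 also reached it but were left out, as each has only a single transcript. For all 48 members compared, the transcript with the highest TPM was the same (0 of 48 differed, beside 6.90% of 7040 genes). The share of a member's TPM in protein-coding transcripts had a median of 95.9% in replicate 1 and 95.5% in replicate 2, beside 95.5% and 95.8% over all protein-coding genes. The lower end reached further down in the members, with a 10th percentile of 39.1% and 37.8% beside 56.0% and 57.2%. The median share in retained-intron transcripts was 2.49% and 1.94% in the members and 0.161% and 0.124% over all protein-coding genes. The share in protein-coding transcripts was lowest in EEF1A1 (0.651% and 0.778%), EIF2B2 (7.45% and 7.37%) and EIF3F (10.6% and 7.31%). EIF3F, a deubiquitinating subunit of eIF3, had 80.3% and 81.3% of its TPM in EIF3F-205, annotated as a target of nonsense-mediated decay, and its coding transcript EIF3F-201 is absent from the transcript table. EIF2B2 had 77.3% and 77.6% in retained-intron transcripts. EIF4A2 split between coding (41.8% and 47.5%) and decay-annotated transcripts (41.9% and 37.2%). Such shares rest on the transcripts that GENCODE 29 names, and the 50288 others carried 5.21% and 5.24% of the TPM.

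Few reads were assigned to the pseudogene copies of the factor genes. Of 152 EIF and EEF pseudogenes, 41 had a read and 6 reached 1 CPM in both libraries. The 1825 and 1804 pseudogene reads came mostly from EEF1A1P5 (1111 and 1112), followed by EIF4BP3 (178 and 154), EEF1A1P6 (126 and 121), EIF4BP6 (108 and 85) and EIF2S2P4 (81 and 90). By TPM, EEF1A1P5 had 6.22 and 8.69, EEF1A1P6 5.01 and 5.64, and EIF2S2P4 2.01 and 2.26. EIF4BP3 had 0 TPM in both libraries and EIF4BP6 had 0.031 and 0.069 TPM, so the level of these copies depends on the table. All pseudogenes of EEF1A1 together had 0.330% and 0.343% as many reads as EEF1A1.

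Of 52 other genes of translation, 50 were detected, beside 61.8% of protein-coding genes. Of 51 tested, 4 were higher and 2 lower in replicate 2 by the same edgeR test, beside 6.49% and 6.65% of all genes tested. PABPC1, the poly(A)-binding protein that meets eIF4G on the mRNA, was the highest of them (834 and 922 TPM) and was called higher, and PAIP2B, an inhibitor of it, was the lowest of its list (7.62 TPM). The 8 release and recycling genes ranged from 13.6 TPM (PELO, ribosome rescue) to 175 TPM (DENR, reinitiation), and the 6 eIF2 kinase and phosphatase genes from 5.74 TPM (EIF2AK3, the kinase PERK) to 74.7 TPM (EIF2AK1, the kinase HRI). In the signalling list MTOR was lowest (11.9 TPM) and called lower, and RPS6KB2, an S6 kinase, was highest (80.9 TPM) and called higher. Of the 9 genes for diphthamide and hypusine, DPH1 was lowest (6.74 TPM) and DHPS, deoxyhypusine synthase, highest (53.8 TPM), but DHPS had only 19 and 17 reads. The 2 selenocysteine genes were EEFSEC (13.9 TPM) and SECISBP2 (33.7 TPM). Of the 9 mitochondrial factors, TUFM was highest (143 TPM) and called lower, and MTRF1 was lowest (5.91 TPM). The tables disagreed for LARP1, with reads over the prediction, and for DHPS and TSFM, with reads under it.

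The libraries held 24137664 and 22198929 reads in genes. The 6 markers of seminoma and primordial germ cells were all detected, with summed levels of 4158 and 4157 CPM. SOX2, a marker of embryonal carcinoma, had 24 reads in each library, and of the 2 leukocyte genes PTPRC had no read and CD14 had 10 and 18 reads (0.414 and 0.811 CPM). Markers of endothelium, fibroblasts and Sertoli or Leydig cells summed to between 3.98 and 11.3 CPM per class and library.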

How the data were processed

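Polyadenylated RNA of 2 TCam-2 libraries was sequenced after DNase treatment and a stranded TruSeq preparation, per the labels' protocols. Trim Galore 0.6.10, STAR 2.7.11a, Salmon 1.10.2, DESeq2 and the build GRCh38 are named, per the submitters' processing notes; the role of each and the annotation release are not given in the sources used here. The authors' transcript table holds TPM. The deposited gene table is a signal: whole reads divided by 1 factor per library, with 1 read worth 1.02 and 1.12, and 100% of the values above 0 were whole within 0.01. Headers name the value columns only, and 0 columns were left unused.

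Recovered reads were scaled to CPM over all reads in genes. TPM was summed per gene by transcript identifier through GENCODE 29, which held 201667 of 251955 transcripts (94.8% of TPM in each library). CPM per kilobase used the TPM-weighted transcript length. Predicted CPM was TPM times length, scaled as CPM is, and tables were compared with a pseudocount of 1 CPM. Symbols came from the table of gene names. Replicate differences were tested with edgeR 4.0.16 (binomTest, TMM sizes, filterByExpr, adjusted p under 0.05); DESeq2 1.42.0 gave alternative size factors. The test was tested on simulated data. Counting limits (3 reads) take no account of amplification, as there were no molecular identifiers, and cover counting error only.

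The members and lists were chosen with earlier results of these data known. Any member may be named; the highest and lowest 3 of each role by TPM, paralogs, members whose tables disagree, the 5 largest replicate differences each way at 10 CPM, the 5 highest pseudogenes, and the highest and lowest gene of each other list are given. One listed modifier, EEF1AKNMT, is named METTL13 in the name table and was not matched by the rule.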

Additional observations from a re-analysis of the deposited data

How the results depend on the processing

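No paired analysis was possible because only 1 group was analysed. Alternatives for detection (52 to 61 members) and for counting noise (13 to 18 members) stayed within 1.5 times the reported counts, though with the deposited factors 9 members were higher, not 5. The share of reads was 2.10% by TPM, 1.76% without the members whose tables disagree and 1.81% without EEF1A1, an alternative added after seeing the data; it was 3.44% to 3.51% with either library left out. The median replicate difference was -0.0033 by TPM, 0.016 when centred on all genes and 0.0053 over members with any read, so its sign depends on the scale. Tables disagreed in 12 members at 2-fold, 4 at 8-fold (EEF1G, EIF3C, EIF3I and EIF4A1) and 9 with a pseudocount of 0.1. With either library left out the count was 8 to 10. At 1 TPM, 1 member changed its top transcript. A tract within 5 bases of the start was found in 24 members. By CPM per kilobase the first paralog's share was 99.8% for EEF1A, 0.40% for EIF4A, 12.5% for EIF4E, 24.7% for EIF4G, 98.8% for EIF3C, 97.7% for EIF1 and 72.7% for EIF4EBP; the cause was not tested. For EIF3C, whose aligned coding sequence is 100% identical to that of EIF3CL, separation of the copies was not tested. Member levels by CPM per kilobase moved beyond 1 SD in 60 of 66. CPM per kilobase is not scaled to the same total as TPM (median ratio to TPM 0.66), so this count does not measure dependence on the table.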
